A study of Mus musculus with 32 samples.

Results

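Interferon-stimulated genes are the genes that cells switch on when an interferon binds its receptor, and 39 of them are described here in mouse liver. Members were taken as the rows of the deposited count table for 39 listed gene symbols, a rule that uses no measured value. All 39 were found among the 55471 genes of the table. All 39 also passed the filter on low counts, which left 14456 genes for testing, so no member dropped out. The data are polyadenylated RNA sequencing of whole liver from 32 male mice of the inbred strain C3H/HeNCrl, every one of them on a high fat diet (HFD). The mice were kept under a short light (SL) or a long light (LL) photoperiod, and livers were taken at zeitgeber time (ZT, the hour on the light schedule) 0, 6, 12 or 18. This gives 4 SL groups and 4 LL groups of 4 mice each (n = 4 throughout), which differ in photoperiod and ZT and share sex, strain and diet. The labels used here state neither the hours of light in SL and LL, nor the event at ZT0, nor the age of the mice. The series counts 1 mouse for each library, so the p-values rest on the spread between mice.

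Cells sense foreign or misplaced nucleic acid with receptors such as RIG-I (Ddx58), MDA5 (Ifih1) and ZBP1, and these sensors drive the secretion of type I interferons. Interferon then acts on receptors of neighbouring cells, where the kinases JAK1 and TYK2 activate transcription factors such as STAT2, which joins IRF9 to bind the interferon-stimulated response element (ISRE) in front of their target genes. Interferon gamma acts on gamma-activated sites (GAS) and strongly induces the immunity-related and guanylate-binding GTPases. Several products of the induced genes are themselves sensors and transcription factors of the pathway, and others, such as USP18, restrain it. In liver, hepatocytes, Kupffer cells and endothelial cells can all express these genes.

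The motif best known for these genes is the core of the ISRE, GAAA followed by any 2 bases and again GAAA, and it was searched on both strands in promoter windows from 250 bases before to 50 bases after the RefSeq start site (GRCm38.p6). Windows were present for 31 of the 39 members. The core lay in the window of 15 of these 31 genes (48.4%), against 3.99% of the 27025 genes with a window. The GAS motif TTCNNNGAA was found in 7 of 31 members (22.6%) and in 9.55% of all genes, and the E-box CACGTG, to which clock activators bind, in 1 of 31 (Trim25, 3.23%) and in 8.09% of all genes. ISRE cores may overlap each other, and a match is a description of the letters and not of binding. The windows printed here belong to the 4 members with the smallest p for the photoperiod by ZT interaction among those that hold a core, and capitals mark the core, which reads TTTC, 2 bases, TTTC where it lies on the other strand.
Isg15, chr4:156200769-156201068, minus strand: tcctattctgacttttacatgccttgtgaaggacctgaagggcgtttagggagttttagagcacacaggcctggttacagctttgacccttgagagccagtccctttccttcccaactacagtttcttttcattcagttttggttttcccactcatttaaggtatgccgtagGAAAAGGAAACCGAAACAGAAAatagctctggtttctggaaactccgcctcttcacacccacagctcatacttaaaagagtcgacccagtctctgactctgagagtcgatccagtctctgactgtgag
Ddx58, chr4:40239776-40240075, minus strand: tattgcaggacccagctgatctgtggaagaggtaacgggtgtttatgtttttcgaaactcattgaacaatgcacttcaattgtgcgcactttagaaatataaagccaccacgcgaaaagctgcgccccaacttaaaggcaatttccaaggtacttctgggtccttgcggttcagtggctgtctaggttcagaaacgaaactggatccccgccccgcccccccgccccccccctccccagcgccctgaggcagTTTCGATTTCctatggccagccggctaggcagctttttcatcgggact
Ifit1, chr19:34640639-34640938, plus strand: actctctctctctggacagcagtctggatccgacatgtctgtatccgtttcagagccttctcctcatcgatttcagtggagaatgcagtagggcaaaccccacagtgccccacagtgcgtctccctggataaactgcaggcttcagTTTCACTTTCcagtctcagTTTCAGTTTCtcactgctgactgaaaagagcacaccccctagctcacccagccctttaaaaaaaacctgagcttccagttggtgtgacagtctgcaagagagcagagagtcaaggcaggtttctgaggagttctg
Ifih1, chr2:62646206-62646505, minus strand: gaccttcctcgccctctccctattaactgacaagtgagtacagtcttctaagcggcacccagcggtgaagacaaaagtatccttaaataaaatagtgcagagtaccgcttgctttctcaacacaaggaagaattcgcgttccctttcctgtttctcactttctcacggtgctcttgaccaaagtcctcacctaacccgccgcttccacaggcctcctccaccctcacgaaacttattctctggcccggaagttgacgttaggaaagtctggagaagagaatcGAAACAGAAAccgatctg
In Isg15, 3 overlapping cores begin 78, 72 and 66 bases before the start site and form 1 run. Ifit1 has cores that begin 104 and 85 bases before the start. The single core of Ddx58 begins 2 bases after the start site, and that of Ifih1 begins 32 bases after it.

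Sequencing depth was between 9095615 and 27462776 counted reads per library (median 15665632.5). Summed hepatocyte markers gave 112600 to 141600 read counts scaled to library size (CPM) in every library, as in liver tissue. All 11 listed Kupffer cell and macrophage markers were detected in every library, at a summed 304.6 to 603.5 CPM, while 13 T and NK cell markers summed to 4.79 to 11.8 CPM and 7 neutrophil markers to 0.307 to 2.51 CPM. Whole liver was sequenced, so fewer cells of a type and less RNA per cell cannot be told apart. LL ZT12 replicate 3 had a mean correlation of log2 CPM with its group mates of 0.969, the lowest of all libraries, against at least 0.981 in the others, and it was the highest or the lowest of the 32 libraries for 20.4% and 21.7% of all tested genes. SL ZT0 replicate 4 stood apart in the interferon-stimulated genes. It was the highest of all 32 libraries for 26 of the 39 members, against 4.08% of all tested genes, and 37 of 39 lay above their mean in that group. SL ZT0 replicate 1 lay below the group mean for all 39. Results that rest on SL ZT0 replicate 4 are therefore given with and without it.

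**Figure D1:**
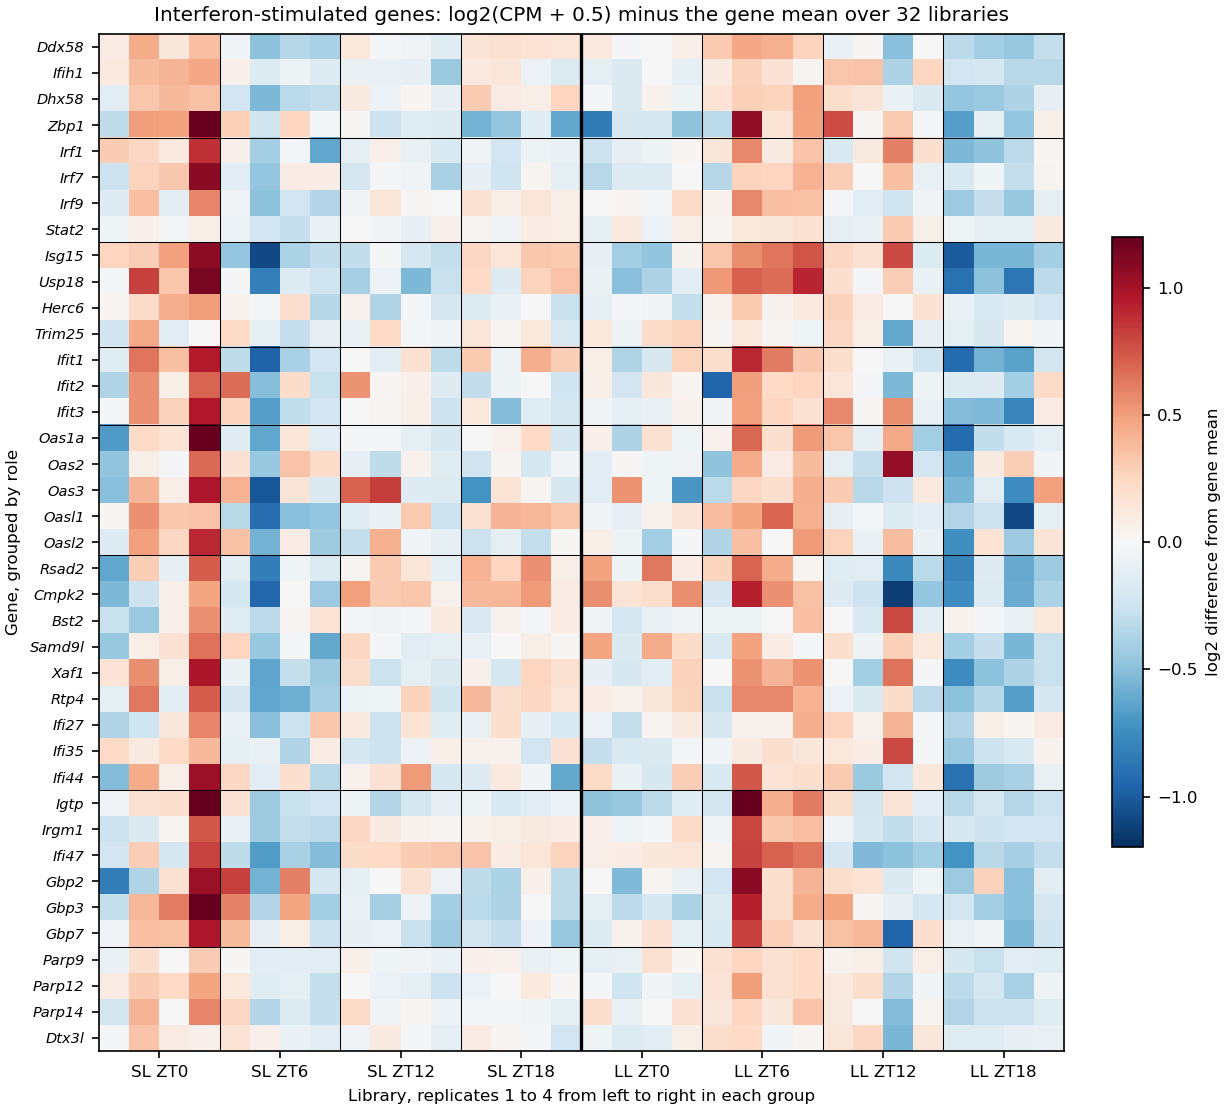
Level of each of the 39 genes (rows, grouped by role) in each of the 32 libraries (columns, SL groups left and LL groups right, 4 mice per group), as log2(CPM + 0.5) minus the mean of the gene, with colours capped at 1.2. Red blocks stand at SL ZT0 and LL ZT6, blue ones at SL ZT6 and LL ZT18, and the single column of SL ZT0 replicate 4 is the reddest, the highest library for 26 genes.

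Most members had their highest group mean at ZT0 in SL and at ZT6 in LL. In SL, 32 of the 39 were highest at ZT0, against 25.9% of all tested genes, and in LL 30 of 39 were highest at ZT6, against 24%. Without SL ZT0 replicate 4 the SL count at ZT0 was 22, with 8 members highest at ZT12 and 7 at ZT18, and without LL ZT12 replicate 3 the LL count at ZT6 was 33. The lowest SL group was ZT6 for 22 members, against 30% of all genes, ZT18 for 10 and ZT12 for 7. The lowest LL group was ZT18 for 33 members, against 25.6% of all genes, and ZT0 for 6. At ZT6, then, most members stood at their daily high in LL and many at their daily low in SL. Photoperiod groups were compared by a quasi-likelihood test in edgeR on the counts, with p-values adjusted over all 14456 genes by the Benjamini-Hochberg method and a threshold of 0.05. The SL minus LL difference changed with ZT (photoperiod by ZT interaction) in 24 of the 39 members, where 32.7% of all tested genes passed. The time of day test within SL passed for 19 members, where 19.1% of all genes passed, and within LL for 20, where 18.3% passed. In both photoperiods 15 of the 39 members passed, and 1752 of all 14456 tested genes did. Without SL ZT0 replicate 4, 11 members passed within SL, 9 of them shared with the 19, where 17.6% of all genes passed.

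At single times, the calls were higher in SL at ZT0 and ZT18, lower in SL at ZT6, and few at ZT12. At ZT0, 10 members were higher in SL and none lower, against 11% of all genes called (6.07% higher and 4.97% lower). At ZT6, 18 members were lower in SL and none higher, against 15.3% of all genes (6.9% higher and 8.38% lower). At ZT12, 2 members were higher in SL and 1 lower, against 12.5% of all genes (6.05% higher and 6.4% lower). At ZT18, 11 members were higher in SL and none lower, against 9.21% of all genes (4.82% higher and 4.39% lower). The median log2 fold change of the 39 was 0.30 at ZT0 with 35 positive, -0.34 at ZT6 with 0 positive, -0.10 at ZT12 with 13 positive and 0.22 at ZT18 with 32 positive, while the median of all tested genes stayed within -0.01 to 0.01. Without SL ZT0 replicate 4 the median at ZT0 was 0.19 with 24 positive. All 11 members that passed at ZT18 also passed at ZT6 in the opposite direction. The share of all genes with such a pair of calls was not counted, so nothing particular to the members is read from it. When each of the 32 libraries was left out in turn, 3 of the 10 calls at ZT0, 12 of the 18 at ZT6, 1 of the 3 at ZT12 and 7 of the 11 at ZT18 held every time.

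The same pattern appears in libraries that do not overlap. At ZT0, all 4 SL libraries lay above all 4 LL libraries for 8 members and below them for none, where 8.94% and 7.76% of all tested genes were so placed. At ZT6 the SL libraries lay below for 15 members and above for none, where 10.6% and 9.76% of all genes did. At ZT12 they lay above for 4 members, Rsad2, Cmpk2, Irgm1 and Ifi47, and below for none, where 7.75% and 6.66% did. At ZT18 they lay above for 18 members and below for none, where 9.55% and 7.94% did.

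**Figure D2:**
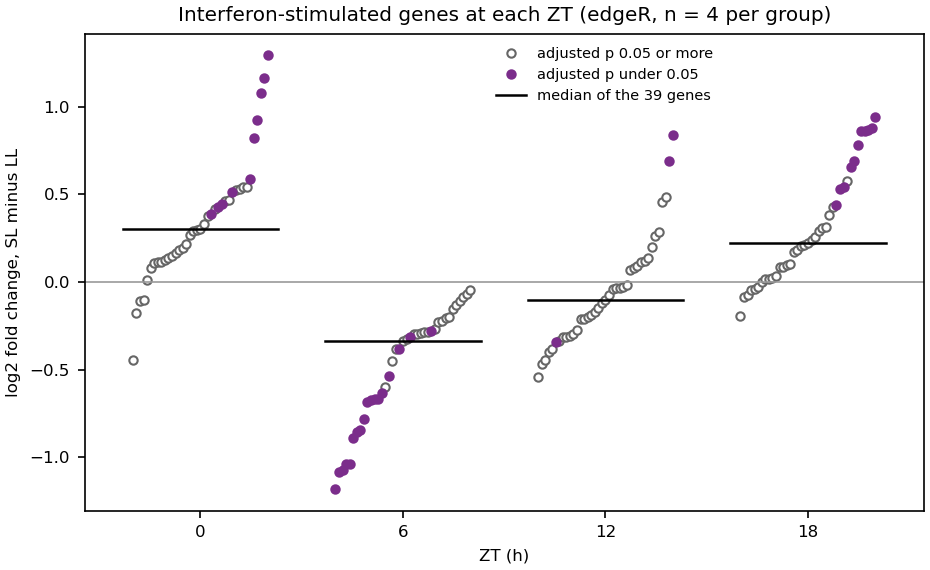
Log2 fold change SL minus LL (vertical axis) of the 39 genes at each ZT (horizontal axis), sorted within each ZT, with filled points for adjusted p under 0.05 and a bar at the median of the 39. The medians are 0.30, -0.34, -0.10 and 0.22, and no gene lies above 0 at ZT6.

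Among the sensors, all 4 changed their SL minus LL difference with ZT. Ddx58 (ENSMUSG00000040296, protein coding, GRCm38 chr4:40203773-40239828, minus strand) codes for RIG-I, which recognises short viral RNA with a triphosphate end. At ZT0 the SL livers had 39.1, 49.6, 40.02 and 46.7 CPM and the LL livers 39.5, 35.95, 36.6 and 38.3 CPM. At ZT6 the SL livers had 35.6, 25.6, 28.5 and 27.6 CPM, against 45.4, 50.3, 49.1 and 43.95 CPM in LL livers. The groups overlapped at ZT0, and at ZT6 every SL liver lay below every LL liver. At ZT12 the values were 39.7, 35.98, 35.4 and 32.8 CPM in SL and 34.3, 36.8, 25.6 and 36.2 CPM in LL, with overlap. At ZT18 they were 40.6, 41.4, 40.7 and 40.2 CPM in SL and 29.1, 27.3, 26.4 and 29.8 CPM in LL, and every SL liver lay above every LL liver. Ddx58 had a log2 fold change SL minus LL of -0.69 (SE 0.10, adjusted p = 1.0e-05, edgeR) at ZT6 and 0.53 (SE 0.10, adjusted p = 0.00059) at ZT18, and the interaction had an adjusted p of 4.2e-07.

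Dhx58 (ENSMUSG00000017830, protein coding, GRCm38 chr11:100694884-100704271, minus strand) codes for LGP2, the relative of RIG-I and MDA5 that lacks their signalling domain. It had 13.5, 18.8, 19.6 and 19.1 CPM in SL livers and 14.7, 13.2, 15.3 and 14.2 CPM in LL livers at ZT0. At ZT6 it had 12.6, 10.04, 11.7 and 12.1 CPM in SL and 16.7, 18.2, 17.96 and 21.02 CPM in LL. Replicate 1 was the low SL liver at ZT0, within the LL values, and at ZT6 no SL liver reached the LL values. The ZT12 values were 16.1, 14.1, 15.1 and 13.8 CPM in SL and 17.3, 16.6, 14.02 and 13.1 CPM in LL. The ZT18 values were 18.5, 15.9, 15.7 and 17.8 CPM in SL and 10.6, 10.8, 11.4 and 13.8 CPM in LL. The groups overlapped at ZT12 and were apart at ZT18, SL above. Dhx58 was lower in SL at ZT6 (log2 fold change -0.67, SE 0.11, edgeR adjusted p = 6.9e-05) and higher at ZT18 (0.54, SE 0.11, adjusted p = 0.0017), with an interaction p of 2.5e-06 after adjustment.

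The other sensors were higher in SL at ZT0. Ifih1 codes for MDA5, which binds long double-stranded RNA, and it had 47.8, 57.7, 58.7 and 61.05 CPM in SL livers at ZT0 against 40.8, 39.2, 44.5 and 40.9 CPM in LL livers, without overlap. Its log2 fold change was 0.45 (SE 0.11, edgeR adjusted p = 0.0092) at ZT0 and 0.40 (SE 0.12, adjusted p = 0.036) without SL ZT0 replicate 4. At ZT12 Ifih1 was the only member called lower in SL, at 39.2 ± 4.50 CPM against 49.7 ± 10.5 CPM in LL (SD), with a log2 fold change of -0.34 (SE 0.11, adjusted p = 0.045). That ZT12 call was lost when any of 16 single libraries was left out, among them SL ZT12 replicates 1 to 4 and LL ZT12 replicates 1, 2 and 4, with adjusted p between 0.0501 and 0.18. Zbp1 codes for a receptor of Z-form nucleic acids that can start necroptosis, and at ZT0 it had 5.02, 9.09, 8.998 and 22.9 CPM in SL livers and 3.297, 5.44, 5.38 and 4.38 CPM in LL livers. SL replicate 4 stood at 2.98 times the mean of its group mates, and replicate 1 lay inside the LL range. The log2 fold change of Zbp1 at ZT0 was 1.29 (SE 0.32, adjusted p = 0.0074) with that liver and 0.72 (SE 0.28, adjusted p = 0.11) without it.

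ISG15 is a small ubiquitin-like protein that is attached to other proteins after interferon exposure, and its gene gave the smallest interaction p of the 39. Isg15 (ENSMUSG00000035692, protein coding, GRCm38 chr4:156199424-156200818, minus strand) had 8.33, 8.58, 9.88 and 15 CPM in SL livers at ZT0 and 6.37, 5.03, 4.83 and 7.097 CPM in LL livers. At ZT6 there were 4.84, 2.98, 5.17 and 5.52 CPM in SL and 8.78, 10.4, 11.01 and 11.9 CPM in LL. SL stood above LL at ZT0 and below it at ZT6, both times without overlap. At ZT12 Isg15 had 5.52, 6.78, 5.88 and 5.54 CPM in SL and 8.28, 7.89, 12.3 and 6.09 CPM in LL. At ZT18 it had 8.25, 7.66, 8.74 and 8.68 CPM in SL and 3.196, 4.53, 4.55 and 5.07 CPM in LL. The ZT12 groups overlapped and the ZT18 groups did not, with SL on top. The log2 fold changes were 0.82 (SE 0.20, edgeR adjusted p = 0.0060) at ZT0, -1.18 (SE 0.20, adjusted p = 6.6e-05) at ZT6, -0.54 (SE 0.20, adjusted p = 0.070) at ZT12 and 0.94 (SE 0.20, adjusted p = 0.0024) at ZT18. The interaction had an adjusted p of 3.7e-07. Without SL ZT0 replicate 4, the ZT0 change of Isg15 was 0.60 (SE 0.20, adjusted p = 0.049).

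Usp18 (ENSMUSG00000030107, protein coding, GRCm38 chr6:121245906-121270917, plus strand) codes for the protease that removes ISG15 and that also dampens type I interferon signalling at its receptor. It had 8.17, 14.9, 10.5 and 18.8 CPM in SL livers and 7.76, 5.67, 6.26 and 7.495 CPM in LL livers at ZT0. It had 8.11, 4.43, 7.33 and 6.89 CPM in SL and 11.98, 13.8, 13.4 and 15.9 CPM in LL at ZT6. As for Isg15, neither time showed overlap, SL being above at ZT0 and below at ZT6. At ZT12 there were 6.13, 7.79, 5.497 and 6.75 CPM in SL and 9.54, 8.08, 10.2 and 7.75 CPM in LL. At ZT18 there were 9.83, 7.33, 9.99 and 10.5 CPM in SL and 4.18, 5.702, 4.28 and 6.52 CPM in LL. The ZT12 groups overlapped narrowly and the ZT18 groups stood apart, SL above. Usp18 had a log2 fold change of 0.92 (SE 0.20, edgeR adjusted p = 0.0023) at ZT0, -1.04 (SE 0.20, adjusted p = 0.00030) at ZT6 and 0.86 (SE 0.21, adjusted p = 0.0060) at ZT18, and the interaction had an adjusted p of 1.3e-06. The ZT0 change of Usp18 was 0.69 (SE 0.20, adjusted p = 0.023) without SL ZT0 replicate 4.

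The ligases of this system were less uniform. Herc6, the main ISG15 ligase of mice, was higher in SL at ZT0, at 16.4 ± 2.43 CPM against 12.2 ± 1.07 CPM in LL (SD), with a log2 fold change of 0.43 (SE 0.12, edgeR adjusted p = 0.015). The Herc6 call was lost without SL ZT0 replicate 3 (adjusted p = 0.056), without SL ZT0 replicate 4 (0.069) or without LL ZT0 replicate 4 (0.065). Trim25, a ubiquitin ligase that acts with RIG-I, passed no test, with an interaction p of 0.72 after adjustment, although at a mean of 104.5 CPM it was among the most deeply counted members.

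Ifit1 (ENSMUSG00000034459, protein coding, GRCm38 chr19:34640871-34650009, plus strand) codes for a protein that binds viral RNA at its 5′ end. It had 8.97, 15.8, 12.9 and 19.8 CPM in SL livers and 10.5, 7.66, 8.68 and 12.1 CPM in LL livers at ZT0. At ZT6 it had 7.97, 4.85, 7.52 and 8.41 CPM in SL and 11.6, 19.1, 15.7 and 12.6 CPM in LL. ZT0 groups overlapped, and at ZT6 all SL livers lay under the LL range. At ZT12 the values were 9.92, 9.03, 11.4 and 7.97 CPM in SL and 11.6, 9.99, 9.38 and 8.36 CPM in LL, largely on top of each other. At ZT18 they were 12.5, 9.54, 13.7 and 12.4 CPM in SL and 5.04, 6.58, 6.21 and 8.49 CPM in LL, apart with SL above. Ifit1 had a log2 fold change of -1.04 (SE 0.20, edgeR adjusted p = 0.00050) at ZT6 and 0.87 (SE 0.21, adjusted p = 0.0067) at ZT18, with an interaction p of 2.6e-05 after adjustment. Its neighbours on chromosome 19 include Ifit3 and Ifit2. Ifit3 passed the interaction at an adjusted p of 0.023, though 51.2% of its 50-base words also occur in Ifit3b, so its reads are uncertain, and the call was lost without SL ZT0 replicate 4 (0.056). Ifit2 had an adjusted p of 0.79 at a mean of 5.11 CPM.

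Of the 5 members of the oligoadenylate synthetase family, in which the active enzymes make the messenger that turns on RNase L, Oasl1 alone passed the interaction. Oasl1 (ENSMUSG00000041827, protein coding, GRCm38 chr5:114923240-114937915, plus strand) codes for a family member known in mice to restrain the translation of Irf7. At ZT0 it had 10.6, 15.5, 13.2 and 13.4 CPM in SL livers and 10.3, 9.76, 10.9 and 11.7 CPM in LL livers. At ZT6 it had 8.24, 5.33, 7.28 and 7.45 CPM in SL and 13.7, 14.8, 17.3 and 14.3 CPM in LL. There was overlap at ZT0, whereas at ZT6 the highest SL liver lay well under the lowest LL liver. At ZT12 the values were 9.405, 9.89, 13.1 and 8.71 CPM in SL and 9.73, 10.4, 9.33 and 9.57 CPM in LL. At ZT18 they were 11.96, 14.1, 14.02 and 13.3 CPM in SL and 8.11, 8.699, 4.69 and 9.61 CPM in LL. LL livers sat inside the SL range at ZT12 and below it at ZT18. The log2 fold change of Oasl1 was -1.09 (SE 0.15, edgeR adjusted p = 6.9e-06) at ZT6, the smallest p of the members at that time, and 0.78 (SE 0.15, adjusted p = 0.0010) at ZT18, with an interaction p of 4.8e-07 after adjustment. Oas1a, Oas2, Oas3 and Oasl2 had interaction p of 0.087, 0.70, 0.63 and 0.24 after adjustment, and 57.6% of the 50-base words of Oas1a also occur in Oas1b or Oas1g. These 4 genes were counted at means of 1.599 to 5.09 CPM, against 10.9 CPM for Oasl1, so their precision is lower.

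Cmpk2 and Rsad2 are neighbours on chromosome 12 that are read in opposite directions (GRCm38 chr12:26469204-26479837, plus strand, and chr12:26442746-26456452, minus strand). Rsad2 codes for viperin, which turns CTP into a chain terminator of viral RNA, and Cmpk2 (ENSMUSG00000020638) for a nucleotide kinase that acts beside it. Cmpk2 had 4.16, 5.21, 6.66 and 8.96 CPM in SL livers and 9.52, 7.13, 7.36 and 9.48 CPM in LL livers at ZT0. At ZT6 it had 5.36, 3.05, 6.32 and 4.51 CPM in SL and 5.39, 12.5, 9.46 and 8.16 CPM in LL. Groups overlapped at both times, and at ZT0 the lower values were in SL. At ZT12 there were 9.06, 7.94, 8.08 and 6.55 CPM in SL and 5.62, 5.22, 2.61 and 4.42 CPM in LL. At ZT18 there were 8.41, 8.43, 9.18 and 6.76 CPM in SL and 3.56, 5.56, 4.002 and 4.74 CPM in LL. SL lay above LL without overlap at ZT12 and at ZT18. The log2 fold change of Cmpk2 was -0.44 (SE 0.24, edgeR adjusted p = 0.27) at ZT0, -0.89 (SE 0.23, adjusted p = 0.0084) at ZT6, 0.84 (SE 0.24, adjusted p = 0.020) at ZT12 and 0.88 (SE 0.24, adjusted p = 0.018) at ZT18.
Its ZT12 call was lost without SL ZT12 replicate 1 (adjusted p = 0.057) or LL ZT12 replicate 3 (0.078), and its ZT18 call without LL ZT18 replicate 1 (0.072) or replicate 3 (0.059). Rsad2 had log2 fold changes of -0.18 at ZT0 (adjusted p = 0.70), -0.67 (SE 0.22, adjusted p = 0.040) at ZT6, 0.46 at ZT12 (adjusted p = 0.20) and 0.86 (SE 0.23, adjusted p = 0.014) at ZT18. The ZT18 call of Rsad2 was lost without LL ZT18 replicate 1 (adjusted p = 0.062), and its ZT6 call without SL ZT6 replicate 1, 2 or 4 or LL ZT6 replicate 2 or 3 (0.053 to 0.15). The ZT6 call of Cmpk2 was lost without LL ZT6 replicate 2 (0.055). The genes Cmpk2, Rsad2, Samd9l and Trim25 were the 4 members with a negative value at ZT0.

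Ifi47 (ENSMUSG00000078920, protein coding, GRCm38 chr11:49076587-49096974, plus strand) belongs to the immunity-related GTPases, which interferon gamma induces and which attack the vacuoles of intracellular parasites. It had 20.7, 29.9, 21 and 43.2 CPM in SL livers and 25.8, 25.96, 26.8 and 26.9 CPM in LL livers at ZT0. It had 19.6, 15.2, 18.4 and 16.8 CPM in SL and 24.9, 43.1, 40.1 and 38.4 CPM in LL at ZT6. At ZT0 the LL livers lay close together inside the wide SL range, and at ZT6 every SL liver lay below every LL liver. At ZT12 there were 28.5, 28.8, 30.1 and 30.7 CPM in SL and 21.1, 16.7, 17.2 and 18.3 CPM in LL. At ZT18 there were 31.1, 25.9, 27.02 and 29.5 CPM in SL and 14.6, 19.2, 18.4 and 19.9 CPM in LL. SL stood above LL with no overlap at both of these times. In Ifi47 the log2 fold change was -1.07 (SE 0.16, edgeR adjusted p = 1.9e-05) at ZT6, 0.69 (SE 0.16, adjusted p = 0.0043) at ZT12 and 0.65 (SE 0.16, adjusted p = 0.0088) at ZT18, and its interaction had an adjusted p of 7.0e-07.

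**Figure D3:**
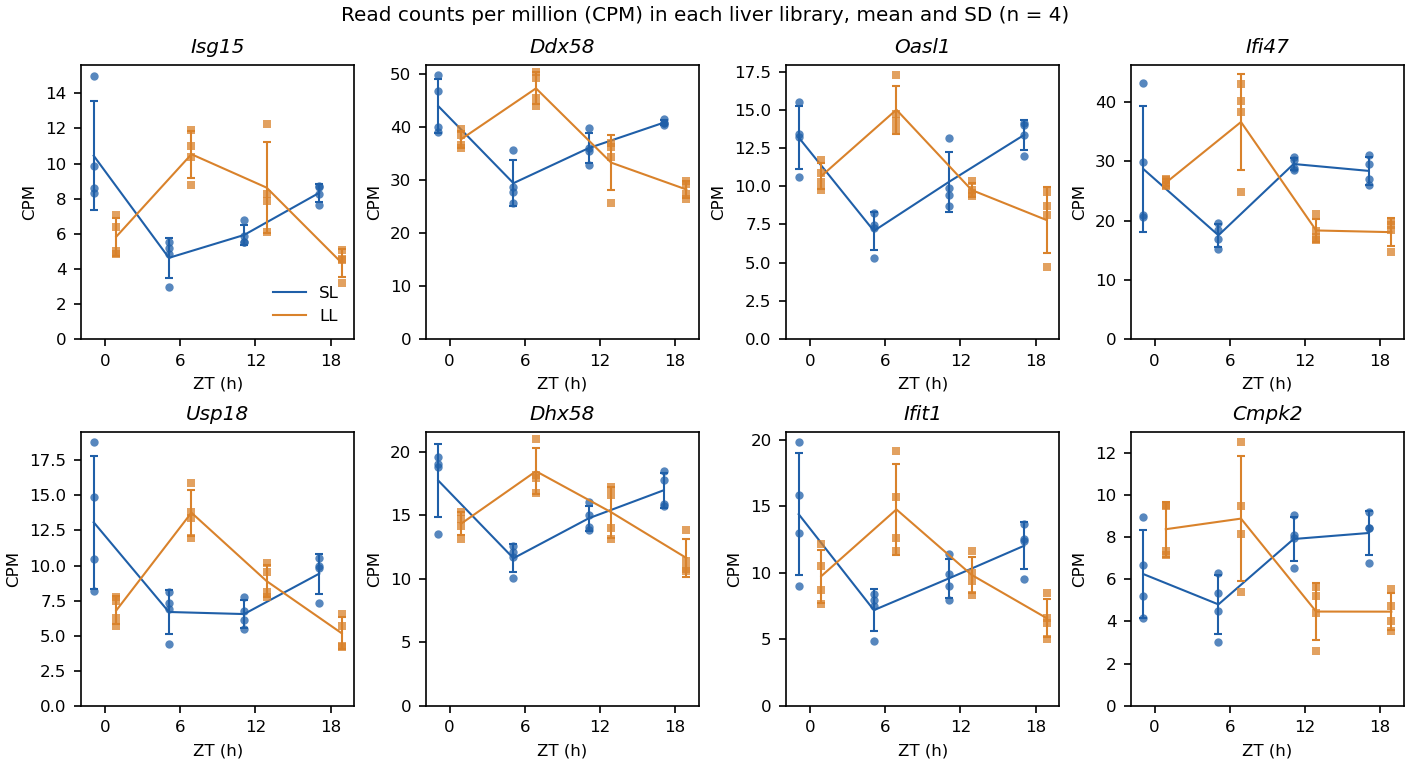
CPM (vertical axis, from 0) by ZT (horizontal axis) of the 8 genes with the smallest interaction p, 1 point per liver, SL circles left and LL squares right of each ZT, with lines through the means and bars for the SD (n = 4). In SL the low point is at ZT6 for 7 of the 8 genes and at ZT12 for Usp18 (Usp18 averages 6.54 CPM there), whereas the LL means are highest at ZT6 and the lines cross between times.

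Igtp and Gbp3 were higher in SL at ZT0. Igtp (Irgm3) had 52.9, 62.1, 62.7 and 206.9 CPM in SL livers at ZT0 and 38.8, 39.6, 43.5 and 49.4 CPM in LL livers. The 4 SL livers lay above the 4 LL livers, and replicate 4 stood at 3.49 times the mean of its group mates. In the LL ZT6 group, replicate 2 stood at 142.5 CPM, 2.08 times the mean of its mates. The log2 fold change of Igtp was 1.16 (SE 0.29, edgeR adjusted p = 0.0074) at ZT0, 0.47 (SE 0.20, adjusted p = 0.16) without SL ZT0 replicate 4, and -0.85 (SE 0.29, adjusted p = 0.043) at ZT6. The ZT6 call of Igtp was lost without any one of 7 libraries (SL ZT6 and LL ZT6 replicates 2, 3 and 4 and LL ZT18 replicate 4), at adjusted p up to 0.26. Its 50-base words are shared with Irgm2 in 11.8% of cases. Gbp3, a guanylate-binding GTPase, had 6.35, 10.5, 12.3 and 26.3 CPM in SL and 7.18, 6.197, 6.699 and 5.903 CPM in LL at ZT0, with overlap, and a log2 fold change of 1.08 (SE 0.30, adjusted p = 0.015), or 0.57 (SE 0.26, adjusted p = 0.18) without replicate 4. Irgm1 was lower in SL at ZT6 (log2 fold change -0.67, SE 0.15, adjusted p = 0.0020). Gbp2 and Gbp7 passed no test, with interaction p of 0.80 and 0.17 after adjustment.

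**Figure D4:**
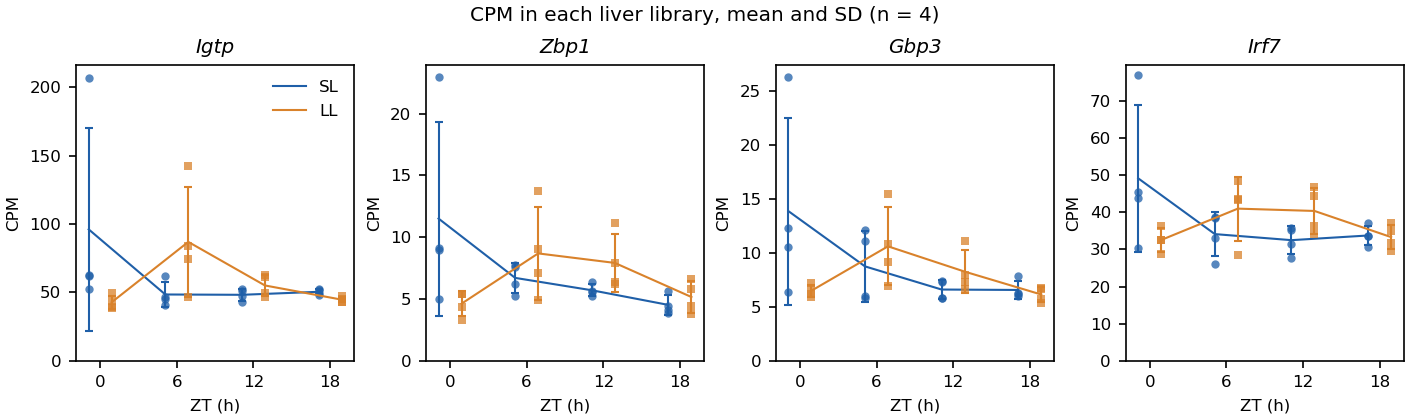
CPM (vertical axis, from 0) by ZT (horizontal axis) of Igtp, Zbp1, Gbp3 and Irf7, 1 point per liver, SL circles left and LL squares right, lines through the means, bars for the SD (n = 4). A single SL liver at ZT0, replicate 4, holds the highest value of all 4 genes, 206.9 CPM for Igtp.

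Transcription factors of the pathway were called at different ZTs, and whether they differ in timing was not tested. At ZT6 all 4 had a negative value, Irf7 without a call (log2 fold change -0.27, edgeR adjusted p = 0.37). Irf9, the DNA-binding partner of STAT2, was lower in SL at ZT6 (30.3 ± 4.09 CPM against 46.8 ± 6.90 CPM in LL, SD) and higher at ZT18 (39.7 ± 1.46 CPM against 29.3 ± 3.30 CPM in LL). Its log2 fold changes were -0.63 (SE 0.13, edgeR adjusted p = 0.00065) and 0.44 (SE 0.13, adjusted p = 0.025), the second being lost without SL ZT18 replicate 1 or 3 or LL ZT18 replicate 1 or 3 (0.056 to 0.096). Stat2 was lower in SL at ZT6 by a small amount, -0.28 on the log2 scale (SE 0.08, adjusted p = 0.013), and its interaction missed the threshold (adjusted p = 0.051). The ZT6 call of Stat2 was lost without SL ZT6 replicate 2 or 3 (0.052 to 0.059). Irf1, an early activator downstream of interferon gamma, was higher in SL at ZT0 (log2 fold change 0.51, SE 0.16, adjusted p = 0.040) and lower at ZT6 (-0.54, SE 0.16, adjusted p = 0.022). The ZT0 call of Irf1 was lost without any one of 8 libraries (SL ZT0 replicates 1 and 4, SL ZT6 replicate 2, LL ZT0 replicates 1 to 4 and LL ZT18 replicate 3), at adjusted p of 0.0503 to 0.24, the last without SL ZT0 replicate 4, and its ZT6 call without SL ZT6 or LL ZT6 replicate 2 or 4 (0.053 to 0.10). Irf7, which amplifies the interferon alpha genes, had 30.3, 43.7, 45.4 and 77 CPM in SL and 28.7, 32.5, 32.5 and 36.4 CPM in LL at ZT0, with overlap. Its log2 fold change at ZT0 was 0.59 (SE 0.18, adjusted p = 0.036), and without SL ZT0 replicate 4 it was 0.29 (SE 0.16, adjusted p = 0.31). The Irf7 call was also lost without LL ZT0 replicate 1, 2 or 3, at adjusted p of 0.13, 0.073 and 0.070.

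Other effectors were called as well. Rtp4, a chaperone of cell surface receptors that binds viral RNA, was lower in SL at ZT6 (9.85 ± 1.41 CPM against 17.6 ± 4.44 CPM in LL, SD) and higher at ZT18 (16.2 ± 1.24 CPM against 10.03 ± 1.40 CPM in LL). Its log2 fold changes were -0.85 (SE 0.18, edgeR adjusted p = 0.0011) and 0.69 (SE 0.18, adjusted p = 0.013), the second being lost without LL ZT18 replicate 3 (0.064). Xaf1, which counters an inhibitor of apoptosis, was lower in SL at ZT6 (-0.78, SE 0.20, adjusted p = 0.0069). Parp12 and Parp9, which belong to the ADP-ribosyltransferases, were lower in SL at ZT6 by 0.38 (SE 0.11, adjusted p = 0.014) and 0.31 (SE 0.08, adjusted p = 0.0074) on the log2 scale. Parp12 was also higher in SL at ZT0 (0.38, SE 0.11, adjusted p = 0.018), a call lost without SL ZT0 replicate 4 (0.085) or LL ZT0 replicate 2 (0.072), and its ZT6 call was lost without SL ZT6 replicate 4 or LL ZT6 replicate 2 (0.061 to 0.074). Parp9 and its ubiquitin ligase partner Dtx3l, which passed no test, share 458 exon bases on opposite strands, and the labels do not say whether counting used strand. The genes with the highest level per length, Bst2 (tetherin, 112.1 CPM per kb of exon) and Ifi27 (74.4 CPM per kb), also passed no test. Ifi35, whose product binds the interferon-induced protein NMI, shares 290 exon bases with the antisense gene Gm11626. It passed the interaction (adjusted p = 0.0039) and the time of day test in LL (0.021) but no single time. In all, 14 of the 39 members passed none of the tests. The share of all genes that passed none was not counted, so nothing particular to the members is read from this count.

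Averaged over the 4 times, SL and LL did not differ detectably. In the mean over ZTs, 0 members passed, and of all tested genes 0% passed (0% higher and 0% lower), although 730 genes had an unadjusted p under 0.05 in edgeR. No member was among those 730. DESeq2 called 6 genes in this comparison and limma-voom 0, with 0 members among them. The member means differed by between -0.09 and 0.14 on the log2 scale. The 95% interval of the mean difference ran from -0.19 to 0.21 for Isg15 and from -0.06 to 0.15 for Ddx58, and the widest reached 0.57 for Oas3, which averaged 1.599 CPM.

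Peak times were described by 24 h cosine waves fitted to the group means, which 4 times of day cannot tell apart from other wave forms. For the 15 members called for time of day in both photoperiods, the circular mean peak was ZT 21.2 in SL and ZT 6.43 in LL. The SL peak thus came 9.21 h before the LL peak (a shift of -9.21 h), with single genes between -10.8 h (Dhx58) and -7.60 h (Igtp). Of the 15, 6 lost without SL ZT0 replicate 4 their time of day call in SL, namely Igtp (adjusted p = 0.67), Ifit3 (0.29), Irf1, Irf9, Xaf1 and Parp12, and the shifts of the other 9 lay between -10.8 h and -8.76 h in the fit of all libraries. All 1752 genes that varied in both photoperiods had a mean shift of -10.1 h, and whether the members differ from them was not tested. Ifi47 peaked earliest of the 15, at ZT 17.7 (SE 0.90) in SL and ZT 4.20 (SE 0.54) in LL. Isg15 peaked at ZT 20.9 (SE 0.66) in SL and ZT 7.55 (SE 0.54) in LL, and Ifit3 latest in SL, at ZT 23.9 (SE 1.54), with ZT 7.87 (SE 1.05) in LL. The order of the genes was thus spread over several hours in each photoperiod. Median log2 amplitudes were 0.35 in SL and 0.43 in LL, and 2 of the 15 genes had the larger amplitude in SL. For all 1752 genes the medians were 0.36 in SL and 0.35 in LL, and 982 had the larger amplitude in SL. Neither the amplitude difference between SL and LL nor that between the members and all genes was tested. Without SL ZT0 replicate 4 the same 15 genes had a mean SL peak at ZT 20.7, a shift of -9.75 h and a median SL amplitude of 0.29.

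**Figure D5:**
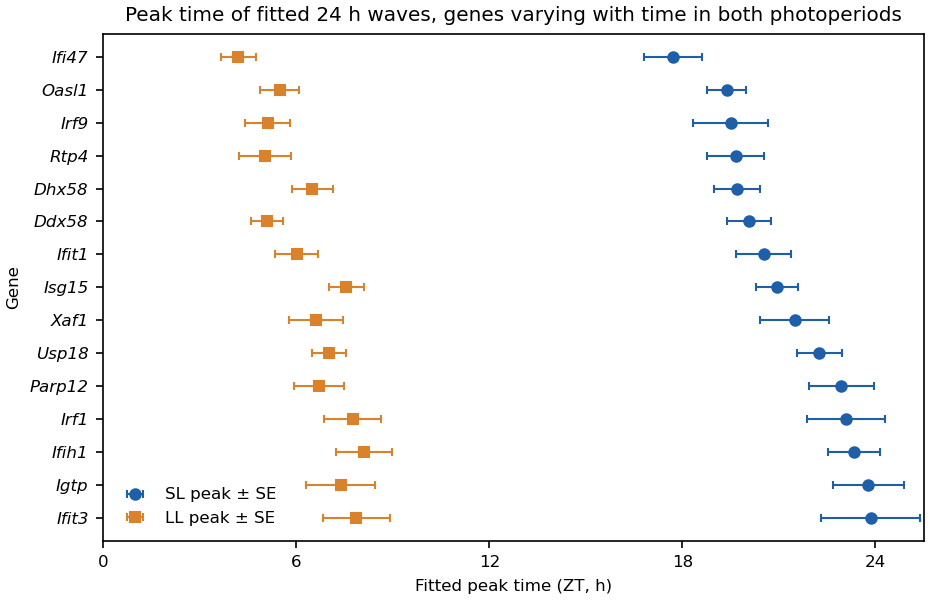
Fitted peak time (horizontal axis, ZT in hours) with its SE for the 15 genes called for time of day in SL (circles) and in LL (squares), sorted by the SL peak. LL peaks lie between ZT 4.20 and 8.11 and SL peaks between ZT 17.7 and 23.9.

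When each SL group was set against the LL group 12 h later, a contrast chosen with the shift already known, 0 members passed the interaction, against 0.519% of all tested genes. By edgeR 15 members had an unadjusted p under 0.05, where 9.84% of all genes did, and DESeq2 called 3 members, where it called 1.58% of all genes. The smallest adjusted p were those of Ddx58 (0.11) and Ifi47 (0.11), and DESeq2 gave them 0.025 and 0.023.

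Genes upstream of the members were looked at through lists of the pathway. Of 21 interferon ligand genes, 18 had no read among the 520176374 counted reads of all libraries, and a count of 0 allows a level of up to 0.00577 CPM (3 counts, counting error only). Ifng had 7 reads, Ifnk 6 and Ifnb1 1 in all libraries together, so no ligand could be tested and none was detectable at a level that allows a comparison. The counts of these lists stand against the 32.7% of all genes that passed the interaction, and nothing particular to a list is read from them. Of 10 receptor and kinase genes, 3 passed the interaction. In SL 1 was lower at ZT0, 2 were lower at ZT6, 1 was higher at ZT12 and 1 was higher at ZT18. Tyk2, the kinase bound to the type I receptor, had 30.99, 26.4, 27.97 and 28.2 CPM in SL livers at ZT6 and 37.3, 37.7, 36.1 and 39.5 CPM in LL livers, apart, and 36.4, 39.03, 37.1 and 39.01 CPM in SL and 28.1, 30.6, 29.9 and 30.5 CPM in LL at ZT18, apart with SL above. Its log2 fold changes were -0.41 (SE 0.06, edgeR adjusted p = 1.9e-05) at ZT6 and 0.35 (SE 0.06, adjusted p = 0.00028) at ZT18, with an interaction p of 3.2e-07 after adjustment. Ifngr1, the ligand-binding chain of the interferon gamma receptor, was lower in SL at ZT0 (-0.40, SE 0.09, adjusted p = 0.0021).

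In the sensing list, 12 of 15 genes were tested and 5 passed the interaction. In SL 1 was lower at ZT0, 1 was higher and 2 lower at ZT6, 3 were higher at ZT12, and 1 was higher and 1 lower at ZT18. Ikbke, the kinase that activates IRF3 and IRF7, had 17.6, 16.1, 16.6 and 16.8 CPM in SL livers at ZT6 and 35.7, 33.4, 36.4 and 35.01 CPM in LL livers. At ZT18 it had 32.7, 36.4, 30.4 and 34.4 CPM in SL and 16.4, 19.01, 16.5 and 21.8 CPM in LL. SL lay below LL at ZT6 and above it at ZT18, both without overlap. The log2 fold change of Ikbke was -1.07 (SE 0.11, edgeR adjusted p = 3.8e-08) at ZT6 and 0.86 (SE 0.11, adjusted p = 2.3e-06) at ZT18, and its interaction p of 2.1e-10 after adjustment was below that of any of the 39 members. Mavs, the mitochondrial adaptor of RIG-I and MDA5, ran the other way, higher in SL at ZT6 (0.32, SE 0.10, adjusted p = 0.022) and lower at ZT18 (-0.46, SE 0.10, adjusted p = 0.0019). Irf5 and Traf3 passed the interaction with adjusted p of 7.6e-05 and 0.00018. Of 11 tested negative regulators 4 passed the interaction, Rnaseh2b (adjusted p = 8.2e-06), Adar (0.00082), Irf2 (0.00082) and Rnaseh2a (0.0050), with 2 higher and 1 lower in SL at ZT6 and 2 lower at ZT18. Of 5 tested chemokine genes Cxcl11 passed (adjusted p = 0.0012), and it was lower in SL at ZT6 (log2 fold change -1.10, adjusted p = 0.0010).

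Of 14 MHC class I presentation genes, which interferon gamma induces, 6 passed the interaction. In SL 5 were higher at ZT0, 1 was lower at ZT6 and 1 was lower at ZT12, and without SL ZT0 replicate 4 the count at ZT0 was 2. Psmb10, a subunit of the immunoproteasome, had 25.6, 22.3, 25.4 and 45.9 CPM in SL livers at ZT0 and 15.6, 20.1, 14.3 and 17.6 CPM in LL livers, without overlap. Its log2 fold change was 0.80 (SE 0.18, edgeR adjusted p = 0.0021) at ZT0, or 0.52 (SE 0.15, adjusted p = 0.024) without SL ZT0 replicate 4. Psmb10 was lower in SL at ZT12 (-0.57, SE 0.17, adjusted p = 0.026), a call lost without LL ZT12 replicate 3 (-0.33, SE 0.16, adjusted p = 0.20). SL ZT0 replicate 4 was the highest of all libraries for 8 of these 14 genes and LL ZT12 replicate 3 for 6. Interaction p after adjustment were 0.00086 for Tap2, 0.0021 for Nlrc5 and 0.0043 for Tap1.

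Markers of Kupffer cells were high together with the member level in SL ZT0 replicate 4. Their sum was 603.5 CPM there, the highest of all libraries, against 304.9 to 399.6 CPM in its SL group mates and 357.4 to 537.3 CPM in the LL ZT0 livers. The LL ZT0 liver at 537.3 CPM, replicate 2, had 9 of the 39 members above their mean in the LL ZT0 group. None of the 11 markers was at 0 in any library, and their part in the ZT0 results was not tested. At ZT6 the sum was 333.0 to 420.0 CPM in SL and 400.2 to 505.9 CPM in LL, and at ZT18 358.1 to 388.5 CPM in SL and 306.7 to 418.1 CPM in LL. Of the 11 markers 0 passed the interaction (edgeR), where 32.7% of all genes passed. Without SL ZT0 replicate 4 the count was 8, where 31.6% of all genes passed. With all libraries, the SL minus LL value was positive in 2 of the 11 at ZT0, 1 at ZT6, 10 at ZT12 and 8 at ZT18. Clec4f passed at ZT12, higher in SL (log2 fold change 0.40, SE 0.13, adjusted p = 0.043), or 0.41 (SE 0.14, adjusted p = 0.055) without LL ZT12 replicate 3. At ZT12, 4 of the markers passed without SL ZT0 replicate 4, where 12.3% of all genes passed. They were Clec4f, Adgre1, C1qc and Csf1r, all higher in SL. Plasmacytoid dendritic cells are known as strong interferon alpha producers, and their 7 listed markers summed to 15.1 to 25.9 CPM. Siglech, their defining marker, had at most 0.868 CPM, while Tcf4 had 12.8 to 20.9 CPM. Of 3 tested markers 1 was called lower in SL at ZT0, where 4.97% of all genes were, a call lost without SL ZT0 replicate 4. For time of day in LL 1 of the 3 passed, where 18.3% of all genes did. B cell markers summed to 14.1 to 68.2 CPM. None of the tested plasmacytoid dendritic, T and NK or B cell markers passed the interaction, while 1 of 1 tested neutrophil markers (S100a9, adjusted p = 0.0040), 4 of 8 sinusoidal endothelial markers (Stab2 first, adjusted p = 5.2e-05), 4 of 9 hepatocyte markers (Fgb first, 9.8e-07) and 12 of 12 core clock genes did.

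Between mice of a group, the members varied more than other genes in some groups. The median SD of log2 CPM within SL ZT0 was 0.44 for the members and 0.18 for all tested genes, while within SL ZT18 it was 0.14 for the members and 0.15 for all genes. Within LL ZT6 the values were 0.26 for the members and 0.16 for all genes. The SL ZT0 group, where most members are highest in SL, was thus also the one with the largest spread of the members among its mice. That value includes replicate 4 and was not computed without it. Over all tested genes the largest median SD was 0.28, in LL ZT12. Without SL ZT0 replicate 4, 3 members (Isg15, Usp18 and Ifih1) passed at ZT0 in place of 10, against 9.12% of all genes. At ZT6 and ZT18 the same 18 and 11 members passed without it, and 21 of the 24 passed the interaction, the others being Irf7, Ifit3 and Gbp3. Among members with a promoter window, the interaction passed in 9 of 15 with an ISRE core and in 10 of 16 without one.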

How the data were processed

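Polyadenylated RNA of 32 whole livers was sequenced with a stranded kit, per the labels' protocols. The authors deposited raw read counts per gene and, for 13432 genes, log2 CPM. Per the submitters' processing notes, bcl2fastq 2.20.0, STAR 2.7.2b and featureCounts 1.6.2 were used with GRCm38 (mm10). The strand setting of the counting and the scaling of the log2 table are not stated in the labels. All tests used the counts. The largest gap between a deposited log2 value and the TMM-scaled log2 CPM was 0.0229, and these values served as an alternative.

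Libraries were grouped by photoperiod and ZT, 8 groups of 4. One edgeR 4.0.16 quasi-likelihood fit (R 4.3.3, TMM factors, filterByExpr with a minimum count of 10, 24 residual degrees of freedom) held all groups. Benjamini-Hochberg adjustment ran over 14456 genes, with a threshold of 0.05. CPM are TMM-scaled, and log2 CPM used a prior count of 2. Total counts of 9095615 to 27462776 set the counting precision. Over 48 pairs of libraries of the same group the chi-square per degree of freedom was at least 5.68, so none was a repeat of another. The scripts were tested on simulated counts.

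The members and all other lists and rules were chosen with earlier results of these data known. Values in each library are given for the 8 members with the smallest interaction p, and fold changes for called members (the 10 with the smallest p where more were called). Psmb10, Ifngr1, Mavs and other genes of pathway lists are among the 4 smallest interaction p of their list, of which 1 gene is not reported here. Members named beyond this rule, such as Trim25, Ifit2, Bst2, Stat2, Irf1, Rsad2, Igtp at ZT6, Ifi35 and Gbp2, were chosen after their values were seen. Alternatives were DESeq2 1.42.0 and its size factors, limma 3.58.1 (voom, and on the deposited log2 values), upper-quartile and library-total scaling, TMM with mitochondrial genes and the top 20 by abundance set aside, dropping the filter or raising its minimum count to 20, a fit of the 2 compared groups alone, a block for the replicate number, and leaving out libraries 1 at a time. Promoter windows came from RefSeq (GRCm38.p6) and gene positions from GENCODE M21. Of the sensing list 3 genes and of the negative regulators 2 were not tested. In the sensing list, Tlr9 fell to the filter on low counts. The symbols Tmem173 and Mb21d1 were not matched to a row of the counts, so their levels are not known here.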

Additional observations from a re-analysis of the deposited data

Results flagged for a closer look

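The SL minus LL difference changed with ZT in the members with the smallest interaction p, which is a difference between the photoperiod effects at the 4 times. The adjusted p of the interaction (edgeR) were 3.7e-07 for Isg15, 4.2e-07 for Ddx58, 4.8e-07 for Oasl1, 7.0e-07 for Ifi47 and 1.3e-06 for Usp18. They were 2.5e-06 for Dhx58, 2.6e-05 for Ifit1, 8.4e-05 for Cmpk2, 0.00016 for Irf9 and 0.00019 for Rtp4. The fold changes behind them were negative at ZT6 and positive at ZT18 in all 10 genes.

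Single libraries far from their group mates were looked for in 72 groups of 4, and chance flags about 1 in 20 groups. For 2 of the 72, the gap of the lowest library to the next one exceeded Dixon's critical value as a share of the range of the group. For Dhx58 in SL ZT0 the gap was 0.867 of the range, with replicate 1 as the low liver. For the median level of the 39 members in SL ZT12 it was 0.843 of the range.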

How the results depend on the processing

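Over 15327 checks of all 39 members under 44 alternatives, 193 of 4596 checks of called members lost the call and 139 checks gained one. Most of the alternatives left out 1 library, often from a group outside the comparison, so these totals are no rate of loss. In at least 1 leave-out, 7 of the 10 calls at ZT0, 6 of the 18 at ZT6, 2 of the 3 at ZT12 and 4 of the 11 at ZT18 were lost. Only the single ZTs and the mean of the 4 ZTs have a fold change. Its sign differed in 269 of their checks, none with a call in either fit. At ZT0, 11 uncalled members had the other sign without SL ZT0 replicate 4. At ZT0 the 10 calls became 6 with limma-voom, 6 with the groups compared alone, and 6 without SL ZT0 replicate 4 and LL ZT12 replicate 3 together, a setting chosen after seeing the data. At ZT12 the 3 calls became 1 with the groups compared alone. For the interaction with LL taken 12 h later, the 0 calls became 5 without the filter and 3 with DESeq2. Leaving out 1 library at a time gave 3 to 12 calls at ZT0 (3 without SL ZT0 replicate 4), 13 to 19 at ZT6, 1 to 4 at ZT12 (1 without SL ZT12 replicate 1), 8 to 13 at ZT18, 0 to 0 in the mean of the 4 ZTs, and 21 to 27 in the photoperiod by ZT interaction. It gave 11 to 22 for time of day in SL (11 without SL ZT0 replicate 4), 17 to 24 in LL, and 0 to 2 for the interaction 12 h later (2 without SL ZT0 replicate 1, 1 without SL ZT0 replicate 3 or LL ZT6 replicate 1). The causes were not tested.

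With the replicate number as a block, 11 members were called at ZT0, 17 at ZT6, 4 at ZT12, 11 at ZT18, 0 in the mean, 25 in the interaction, 19 for time of day in each photoperiod and 0 in the interaction 12 h later. Libraries with the same number did not deviate together on average (mean correlation -0.0147 to 0.0077, single pairs -0.263 to 0.243). These correlations cannot tell how the mice were numbered, and the main fit used no pairing. Scaling by library totals alone shifted the median of all genes by 0.07 at ZT18. Groups of 4 mice and members at a few CPM, such as Oas3, limit what could be called.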
